A study of Mus musculus with 6 samples.

Results

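The respiratory chain genes described here encode the electron transport complexes of mitochondria and the ATP synthase they feed. They were chosen by symbol alone: nuclear genes beginning Ndufa, Ndufb, Ndufc, Ndufs, Ndufv, Sdha to Sdhd, Uqcr, Cox4 to Cox8 or Atp5, and mitochondrial genes beginning mt-Nd, mt-Co, mt-Cytb or mt-Atp. The rule took 109 of the 31017 gene symbols in the files, of which 96 are nuclear and 13 are mitochondrial. By symbol, 84 of the nuclear genes were sorted as subunits, with 38 in complex I, 4 in complex II, 8 in complex III, 18 in complex IV and 16 in complex V, and the other 12 are assembly factors (8 for complex I and 4 for complex II). One member, Atp5o, has 2 gene IDs, which were summed.

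Cells came from collecting lymphatic vessels of the skin and their surroundings in C57BL/6 mice, with no genetic change or drug treatment named in the labels, and gave 6 single-cell libraries. A male and a female library were labelled at each of 3 ages, 6 weeks (young), 12 months (middle-aged) and 18 months (aged). The aged mice came from the National Institute on Aging, so supplier and age cannot be told apart, and the labels do not say how many mice went into a library. Xist and Y-linked genes went against the sex labels of both middle-aged libraries, which are therefore called the libraries labelled middle-aged male and labelled middle-aged female. After removal of likely doublets 23898 cells were kept, of which 20670 (86.5%) fell into 1 cell type by counts of detected markers, with no member gene among the markers. The libraries held 9616652 to 28921825 UMIs in all, and every gate had UMIs of all 8 of its markers. The libraries shared 62 of 23836 distinct cell barcodes. Values for single libraries are given with the young pair first, then the pair labelled middle-aged, then the aged pair, and in each pair the library labelled male before the one labelled female.

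Complex I takes electrons from NADH and complex II takes them from succinate. Complex III passes them to cytochrome c, and complex IV hands them to oxygen. The proton gradient that builds up drives ATP synthase, complex V. The 13 mitochondrial genes encode core subunits of complexes I, III, IV and V, and every other subunit comes from the nucleus. Several nuclear subunits of complex IV exist as tissue isoforms. The muscle of collecting lymphatic vessels contracts in rhythm to pump lymph, which uses ATP. The marker gate used for muscle below does not separate lymphatic muscle from that of blood vessels, and the vessel of origin was not tested.

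Smooth muscle cells, gated on Acta2, Myh11, Tagln, Cnn1, Des, Lmod1, Synpo2 and Pln, had the highest mean levels of both the nuclear and the mitochondrial members among the 9 cell types with sums in at least 3 libraries. Summed over the 96 nuclear members, muscle held 24966, 24095, 23174, 29458, 30083 and 24352 UMIs per 1000000 UMIs of genes outside the mitochondrial genome, a unit used for every nuclear sum below. The young female and aged female sums rest on 17 and 13 cells, and means use only sums of at least 20 cells. The mean was 26920 ± 3381 in muscle (SD, n = 4), 24679 ± 2728 in epithelium (SD, n = 3), 15519 ± 1376 in blood endothelium (SD, n = 6), 12642 ± 1142 in fibroblasts (SD, n = 6) and 8872 ± 1758 in neutrophils (SD, n = 3). Dendritic cells (17603), T cells (16448), macrophages (15203) and B cells (14787) lay between, and muscle and epithelium overlapped.

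The 13 mitochondrial genes took 7.43, 6.51, 5.35, 5.71, 6.08 and 6.16% of all muscle UMIs. Their mean share was 6.14 ± 0.910% in muscle (SD, n = 4), 4.29% in epithelium, 3.46% in blood endothelium, 2.72% in macrophages, 2.02 ± 0.624% in fibroblasts (SD, n = 6) and 1.25% in neutrophils. Within libraries muscle exceeded fibroblasts in 4 of 4, by 1.67 to 2.54 times for the nuclear sum and by 1.94 to 4.47 times for the mitochondrial share. It exceeded blood endothelium in 4 of 4 libraries as well, by 1.51 to 2.21 times and by 1.50 to 2.14 times. Against epithelium the nuclear sums of muscle did not lie on one side. In the library labelled middle-aged male, where each type had at least 20 cells, muscle was 1.04 times epithelium for the nuclear sum and 1.2 times for the mitochondrial share. In the young female library, with 17 muscle cells, the nuclear sum was lower in muscle than in epithelium (24095 and 27688), and in the aged female library, with 13 muscle cells, the sums were 24352 and 23982. The mitochondrial share was higher in muscle in both, at 6.51 and 5.35% in the young female and 6.16 and 3.06% in the aged female library. Across the 9 types the 2 sums had a Pearson r of 0.848 and a Spearman rho of 0.733, as a description of types that share libraries. These sums were given no test.

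**Figure D1:**
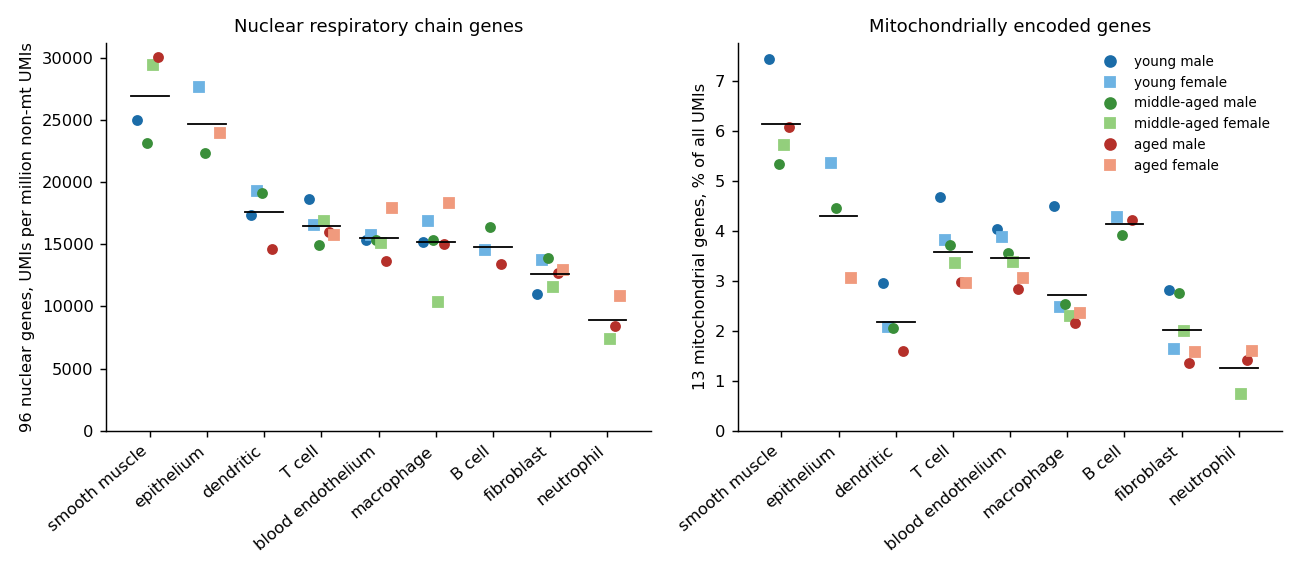
Nuclear member sum (left, UMIs per 1000000 non-mitochondrial UMIs) and mitochondrial share (right, % of UMIs) by cell type, with 1 point per library that held at least 20 cells of the type and a bar at their mean. Muscle has the highest mean in both panels, and its nuclear values overlap those of epithelium.

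UMIs of markers of other cell types were present in the muscle gate. Epithelial markers summed to 0, 885, 1752, 0, 0 and 1042 CPM (UMIs per 1000000 UMIs of all genes in the sum, which for 3′ tags does not scale with transcript length), and a keratin UMI (Krt5, Krt14 or Krt17) was seen in 7 of 17, 48 of 87 and 8 of 13 muscle cells of the 3 libraries above 0. Whether these are smooth muscle cells or cells of another type, such as myoepithelial cells, was not tested. Pericyte markers summed to 287 to 1508 CPM against 10631 to 27766 CPM for the smooth muscle markers, and skeletal muscle markers to at most 64.8 CPM. With the keratin cells left out, the nuclear sum of the library labelled middle-aged male was 25537 in place of 23174 and its mitochondrial share was 5.96% in place of 5.35%. The 3 libraries with keratin cells are also the ones in which epithelium had a sum. Without keratin cells their muscle sums were 26666 (10 cells), 25537 (39 cells) and 31493 (5 cells). Epithelium was at 27688, 22368 and 23982 in the same libraries. Barcodes with at most 100 UMIs, which stand for free RNA, carried 9.44 to 35.0% mitochondrial UMIs, and its part in the shares of cells was not tested.

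Gene by gene, muscle was compared with the mean of the 8 other types in 1 fit with library as a block, using edgeR's quasi-likelihood test with Benjamini-Hochberg adjustment over 8391 genes. Of the 84 nuclear members tested, 44 were higher and 1 was lower. Over all genes 20.8% were called higher and 12.3% lower. Of the 13 mitochondrial members, 12 were higher and none lower, and mt-Nd6 missed the threshold (edgeR adjusted p = 0.074). The median log2 difference was 0.67 over the nuclear members and 0.82 over the mitochondrial ones, against 0.04 over all genes. Under 17 other settings between 46 and 82 members were higher and 0 to 2 lower, while the median over all genes ranged from -0.19 to 0.23 and that of the members lay 0.53 to 0.93 above it. p-values measure the spread between these libraries. The other 12 nuclear members did not pass the filter on low counts and were not tested: Ndufaf1, Ndufaf5, Ndufaf6, Sdhaf2, Sdhaf3, Cox6a2, Cox6b2, Cox7a1, Cox7b2, Cox8b, Cox8c and Atp5s.

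Complex I held the most calls, with 23 of its 38 nuclear subunits and 6 of its 7 mitochondrial subunits higher in muscle. Ndufa5, an accessory subunit of the matrix arm (chr6:24518666-24528013, GRCm38), was at 255, 151, 183, 343, 365 and 287 CPM in muscle and at 15.5 to 158 CPM on average elsewhere. It differed by 1.84 ± 0.23 on the log2 scale (SE; edgeR adjusted p = 3.8e-08). Only the young female muscle sum, of 17 cells, lay below the epithelial mean. Ndufs1, the largest core subunit, was higher by a log2 difference of 1.56, Ndufb2 by 1.51 and Ndufs3 by 1.48. Ndufa4, by its symbol a complex I gene but now assigned to complex IV, did not pass (0.33 ± 0.19 SE; edgeR adjusted p = 0.19).

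Complex II is the smallest complex and also part of the citric acid cycle. Of its 4 subunits, 2 were higher in muscle: Sdhc, a membrane anchor, by a log2 difference of 1.43 and Sdhb, the iron-sulfur subunit, by 0.82. Sdha, the flavoprotein, was at 0.30 and Sdhd, the other anchor, at -0.22, and neither passed. In complex III, 4 of 8 nuclear subunits and mt-Cytb were higher. mt-Cytb, the subunit that holds the b hemes in the membrane, was at 6862 ± 1230 CPM in muscle (SD, n = 4) and at 4536 CPM in epithelium, the next type. Uqcr11, a small accessory subunit, was higher by 1.29 and Uqcr10 by 0.70, and Uqcrh, the hinge protein, was at 0.24 without passing.

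In complex IV, 7 of the 12 nuclear subunits tested were higher and 1 was lower, and all 3 mitochondrial subunits were higher. Cox8a, the ubiquitous form of a small membrane subunit (chr19:7215153-7217616), was at 1166, 972, 1019, 1789, 2147 and 1433 CPM in muscle and at 452 to 1072 CPM on average in the others. It was higher by 0.99 ± 0.14 (SE; edgeR adjusted p = 2.7e-07). The sums of the young female and labelled middle-aged male libraries lay below the epithelial mean. Cox6c, another small subunit, was higher by 1.05, whereas Cox4i1, the ubiquitous form of the regulatory subunit IV, was at 0.18 ± 0.13 (SE; edgeR adjusted p = 0.32). mt-Co1, the catalytic subunit, was higher by 0.38 (edgeR adjusted p = 0.036), mt-Co2 by 0.65 and mt-Co3 by 0.75.

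Cox7a2l, which takes part in joining complexes III and IV (chr17:83501918-83517330), was the member called lower. It stood at 189, 281, 275, 157, 126 and 182 CPM in muscle, below the mean of every other type but neutrophils, which ranged from 301 to 429 CPM. Neutrophils were at 150 CPM. Its log2 difference was -0.88 ± 0.20 (SE; edgeR adjusted p = 4.4e-04), and with a stricter gate it was -0.57 and did not pass (adjusted p = 0.072). Its relative Cox7a2, the widespread form of that subunit, was higher by 0.77.

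In complex V, 8 of 15 nuclear subunits tested and both mitochondrial subunits were higher. Atp5b, the catalytic beta subunit, named here after its values were seen, was at 739, 497, 429, 604, 765 and 130 CPM, and was higher by 1.12 ± 0.15 (SE; edgeR adjusted p = 1.1e-07). The aged female value is 5 UMIs in 13 cells. Of the 3 genes that encode the proton-carrying ring, Atp5g3 was higher by 0.91, and Atp5g1 (0.41) and Atp5g2 (0.15) did not pass. mt-Atp6, the proton channel, was higher by 1.01 and mt-Atp8 by 0.82. Summed by complex, muscle was 1.56 to 2.66 times the mean of the other types in its library for complex I and 1.24 to 2.10 times for complex V, over 4 libraries. None of the 5 complex I and 2 complex II assembly factors tested passed in either direction by edgeR.

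**Figure D2:**
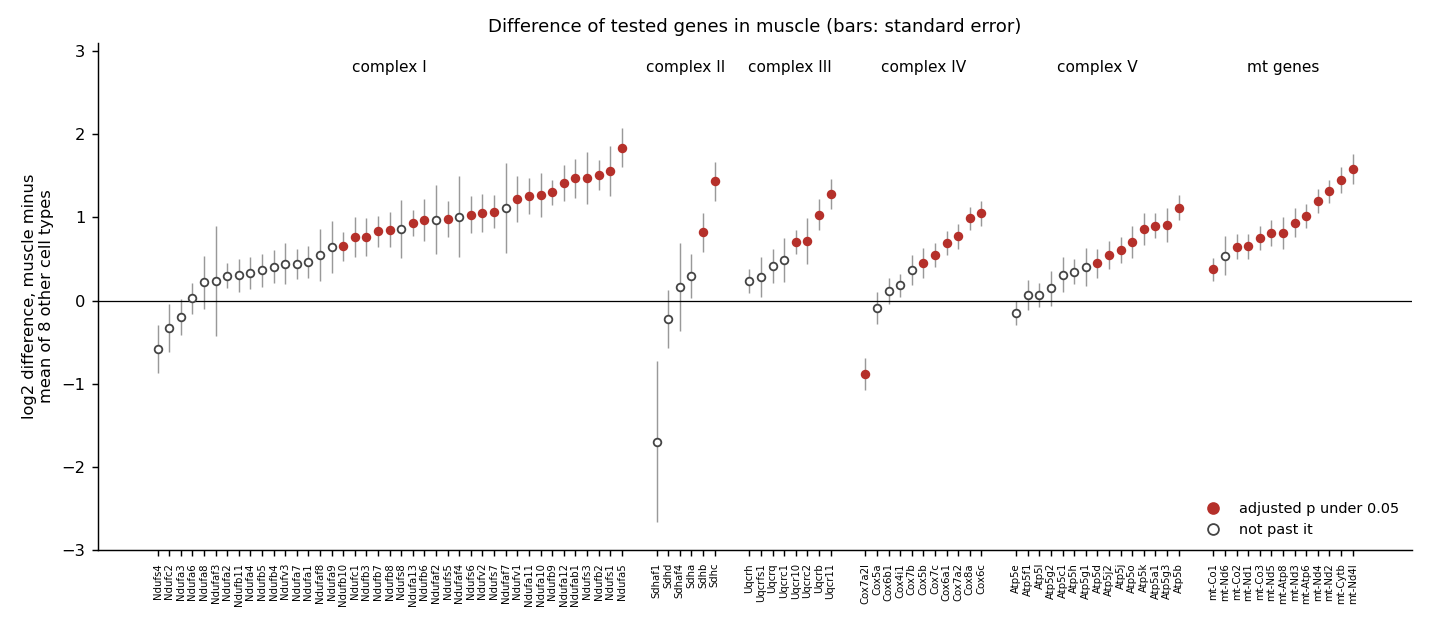
Log2 difference (± SE) of muscle from the mean of 8 other types for tested members, grouped by complex, with filled points past an adjusted p of 0.05. Most members lie above 0 and Cox7a2l is the member called lower, while Ndufa4l2 and Cox4i2 lie above the range of the axis and are not drawn.

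Other genes of energy metabolism, from lists chosen with earlier results of these data known, were counted in the same fit, in which 20.8% of all genes were called higher and 12.3% lower. In the citric acid cycle 9 of 16 genes were higher in muscle and none lower, among them Sucla2 (1.40) and Idh3g (1.33). Of 11 mitochondrial carriers and pores 3 were higher, with Slc25a4, the muscle form of the ADP/ATP exchanger, at 2.85 ± 0.20 (SE). Of 18 further respiratory chain genes tested 5 were higher, among them Atpif1, the inhibitor of ATP synthase (1.57), Cyc1, which is cytochrome c1 of complex III (0.93), and Cycs, which is cytochrome c (0.82). In glycolysis 4 of 15 were higher, with Ldhb, the lactate dehydrogenase subunit frequent in oxidative tissue, at 4.26 ± 0.87 (SE). Of 8 genes of mitochondrial biogenesis tested, none was higher and Nrf1, a transcription factor for respiratory genes, was lower at -1.54 ± 0.44 (SE). Hypoxia-related genes counted 5 higher of 14, led by Epas1, which encodes HIF-2 alpha (5.11). The counts for carriers and pores, further respiratory chain genes and glycolysis were near the share called higher over all genes. The medians of these lists were 0.76, 0.19, 0.23, 0.06, 0.15 and 0.57 in the order given, against 0.04 over all genes. None of the 6 brown adipocyte markers passed the filter, and none of 4 erythrocyte markers tested was called.

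The 2 members with the largest differences were isoforms with little expression outside the vessel wall. Cox4i2 (chr2:152754173-152765037) encodes an alternative form of complex IV subunit IV known from lung and from oxygen sensing. It was at 131, 43.2, 34.3, 69.7, 160 and 52.1 CPM in muscle, from 16, 2, 6, 12, 14 and 2 UMIs. Ndufa4l2 (chr10:127514967-127517154), a relative of Ndufa4 known to be induced by hypoxia, was at 337, 238, 85.9, 354, 286 and 78.2 CPM, from 41, 11, 15, 61, 25 and 3 UMIs. Both were lowest in libraries whose muscle gate held keratin cells, and without those cells the library labelled middle-aged male rose to 91.6 CPM of Cox4i2 and 229 CPM of Ndufa4l2.

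B cells, dendritic cells and neutrophils held no UMI of either gene, and T cells held 0 UMIs of Cox4i2 in 1603949, where 3 counts would be 1.87 CPM. The fitted log2 differences of 8.79 ± 0.57 for Ndufa4l2 (SE; edgeR adjusted p = 4.5e-14) and 8.60 ± 0.71 for Cox4i2 (SE; edgeR adjusted p = 1.1e-10) therefore depend on the prior count and are no bounds. Blood endothelium had 26.6, 20.7, 10.2, 5.01, 2.92 and 27.8 CPM of Cox4i2, lower than muscle in each of the 6 libraries. Its pericyte markers summed to at least 194 CPM in the 5 libraries used for the endothelial comparison, and their part in these values was not tested. Pericyte-gated cells, in the 1 library with at least 20 of them, were higher than muscle, with 316 CPM of Cox4i2 (95% Poisson interval 235 to 416) against 131 (75.1 to 213), and 645 CPM of Ndufa4l2 (527 to 781) against 337 (242 to 457). These intervals cover counting error only.

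As a share of both subunit IV genes, Cox4i2 made up 11, 3.45, 3.21, 5.83, 11.7 and 6.67% in muscle, with a mean of 7.91 ± 4.08% (SD, n = 4). The share was 23.9% in young male pericytes, 1.85 ± 1.34% in blood endothelium (SD, n = 6) and 0.0421% in fibroblasts. Ndufa4l2 took 49.4, 28.2, 11.8, 53.0, 35.2 and 8.11% of the UMIs of Ndufa4 and Ndufa4l2 in muscle, 72.2% in the pericytes and 6.29 ± 4.34% in blood endothelium (SD, n = 6). The muscle shares spread widely between libraries of 1 age, from 8.11 to 35.2% for Ndufa4l2 in the aged pair.

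Of the isoforms of striated muscle, Cox6a2 and Cox8b were nearly absent from the vessel muscle. These heart and skeletal forms of their subunits had 1 UMI each over all muscle-gated cells. Cox7a1 had 0 to 40.7 CPM, with 7 UMIs in the library labelled middle-aged female, and up to 5.98% of the UMIs of Cox7a1 and Cox7a2. The 13 cells gated as skeletal muscle in the young male library had 854 CPM of Cox6a2 (19 UMIs), 180 CPM of Cox8b (4 UMIs) and 89.8 CPM of Cox7a1 (2 UMIs), with a nuclear sum of 35841 and a mitochondrial share of 3.74%. Cox6b2, a form known from testis, took its highest mean share in dendritic cells, 9.52 ± 4.88% of the 2 Cox6b genes (SD, n = 4).

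**Figure D3:**
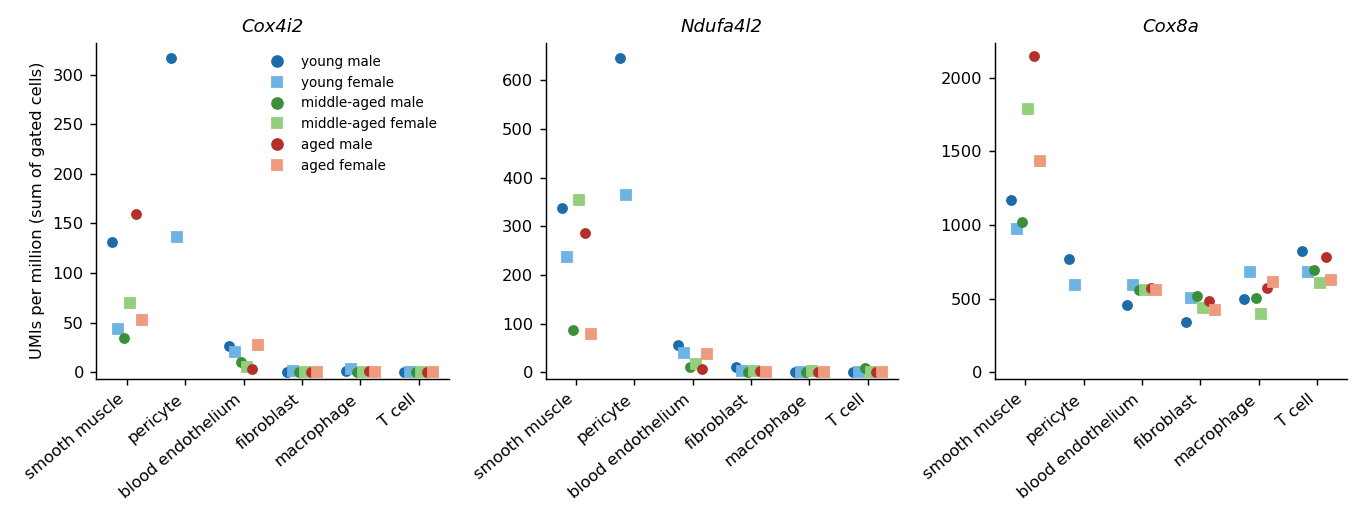
Levels of Cox4i2, Ndufa4l2 and Cox8a (CPM of summed gated cells) in 6 cell types, with 1 point per library. Cox4i2 and Ndufa4l2 are highest in pericytes and muscle, low in blood endothelium and at or near 0 in the other types drawn, while Cox8a is present in all 6 types. Cox8a of muscle lay below the epithelial mean in the young female and labelled middle-aged male libraries.

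Promoters of 3 nuclear members are shown because they carry motifs of factors known to bind promoters of respiratory genes. The promoter table, from RefSeq on GRCm38.p6, gives 250 bases before to 50 after the start, and it held 78 of the 96 nuclear members. Capitals mark a match to the motif on either strand. Cox8a (chr19:7217567-7217866, minus strand) has the ETS family motif CCGGAAGT at -6 and 32 relative to the start. Cox6a1 (chr5:115348909-115349208, minus strand) has the NRF1 motif CGCNTGCGC at -162, -161 and -117, where the first matches overlap on opposite strands. Atp5b (chr10:128083057-128083356, plus strand) has the YY1 motif ANATGGCGG at 16.
Cox8a: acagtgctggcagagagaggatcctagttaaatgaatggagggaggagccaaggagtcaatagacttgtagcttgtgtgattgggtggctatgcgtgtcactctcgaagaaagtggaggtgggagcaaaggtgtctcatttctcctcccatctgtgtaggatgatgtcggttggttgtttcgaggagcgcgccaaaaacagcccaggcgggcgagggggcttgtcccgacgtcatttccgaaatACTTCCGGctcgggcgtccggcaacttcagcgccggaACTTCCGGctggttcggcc
Cox6a1: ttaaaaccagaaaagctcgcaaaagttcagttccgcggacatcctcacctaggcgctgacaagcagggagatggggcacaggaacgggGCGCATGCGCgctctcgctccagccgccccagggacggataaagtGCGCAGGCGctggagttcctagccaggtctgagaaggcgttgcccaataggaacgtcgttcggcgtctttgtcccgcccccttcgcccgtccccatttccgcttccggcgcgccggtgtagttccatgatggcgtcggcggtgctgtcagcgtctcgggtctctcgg
Atp5b: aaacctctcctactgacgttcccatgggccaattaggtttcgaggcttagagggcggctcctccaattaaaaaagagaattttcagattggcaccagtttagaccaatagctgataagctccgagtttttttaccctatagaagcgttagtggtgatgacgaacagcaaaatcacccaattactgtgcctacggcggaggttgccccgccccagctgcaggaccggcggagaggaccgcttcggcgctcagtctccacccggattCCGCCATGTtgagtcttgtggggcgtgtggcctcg

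The NRF1 motif was present in 24 of 78 member promoters (30.8%) and in 1901 of 27025 genes of the table (7.03%). The YY1 motif was in 10 of 78 (12.8%) against 2.19% of all genes, and the ETS motif in 5 of 78 (6.41%) against 4.31%. Among members higher in muscle, 10 of 34 held the NRF1 motif (29.4%), and among those tested but not higher 12 of 36 did (33.3%). The YY1 motif was in 4 of 34 (11.8%) and 5 of 36 (13.9%). These matches are letters in a window, not sites of binding. Cox4i2, Ndufa4l2 and Cox4i1 have no entry in the table.

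The cap of 10% on mitochondrial UMIs acts on the sum of the 13 mitochondrial members, which are all the mitochondrial genes in the reference. With libraries pooled, muscle lost a larger share of its barcodes to it than the other types given here. Before the cap 289 barcodes passed the muscle gate, and 74 of them (25.6%, 95% exact binomial interval 20.7 to 31.0%) lay above it. By library this was 51 of 98, 7 of 24, 6 of 95, 2 of 27, 3 of 27 and 5 of 18. Of the 74 barcodes, 51 were in the young male library. The interval treats barcodes as independent and holds no spread between libraries. The pooled share above the cap was 1.93% in fibroblasts, 1.97% in macrophages, 4.22% in blood endothelium, 0.383% in T cells and 13% in epithelium. In the young female, labelled middle-aged male and aged female libraries, muscle held 24, 94 and 18 cells without the cap. It held 17, 87 and 13 with it. Epithelium held 100, 394 and 186 without the cap and 96, 334 and 161 with it. Of these libraries, epithelium lost the larger share only in the one labelled middle-aged male.

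Barcodes above the cap differed between types in depth and in nuclear member level. In muscle the median was 2383 UMIs above the cap and 2313 below, while in fibroblasts it was 1322 against 3635, in macrophages 1207 against 2256 and in epithelium 2341 against 5251. The nuclear members of muscle summed to 31924 above the cap and 26213 below, and to 31159 against 24966 in young male muscle. In epithelium the order was the other way, with 15746 above and 24079 below. With no cap, the mitochondrial share of muscle was 10.8, 9.89, 5.66, 6.59, 6.63 and 7.99%, highest in both young libraries, as it was with the cap.

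**Figure D4:**
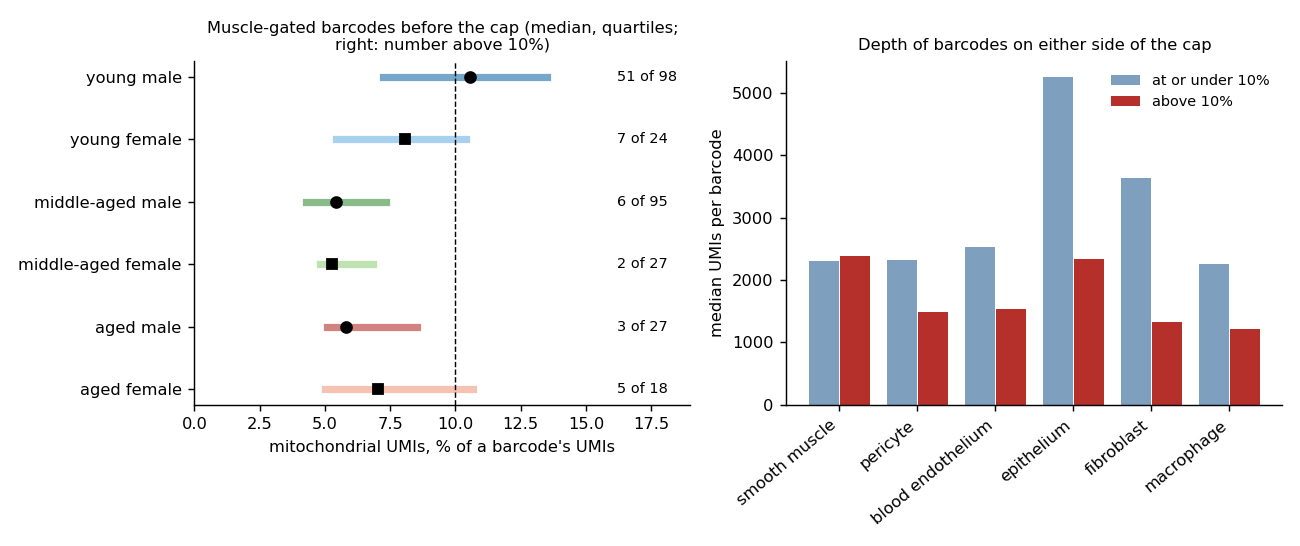
Left, mitochondrial share (% of a barcode's UMIs) of the barcodes gated as muscle in each library before the 10% limit (dashed line), as median and quartiles, with the number above the limit at the right. Right, median UMIs per barcode at or under and above the limit in 6 cell types: the young male library has 51 of 98 muscle barcodes above it, and muscle barcodes have similar depth on either side (2313 and 2383 UMIs).

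Macrophages and fibroblasts, the most numerous types, were compared in the same fit. Of the 84 nuclear members tested, 22 (26.2%) were higher in macrophages and 4 (4.76%) lower, where 29.7% of all genes were higher and 33% lower. The share of higher members is near that of all genes. Of the 13 mitochondrial members 3 were higher: mt-Nd6 (0.73), mt-Co1 (0.70) and mt-Co2 (0.48). The median log2 difference was 0.23 over nuclear members, 0.29 over mitochondrial members and -0.06 over all genes.

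Cox5a, a matrix-side subunit of complex IV (chr9:57521274-57532426), stood at 412, 412, 303, 147, 244 and 414 CPM in macrophages and at 132, 130, 119, 125, 102 and 112 CPM in fibroblasts. The groups did not overlap, and the log2 difference was 1.38 ± 0.18 (SE; edgeR adjusted p = 8.8e-09). Ndufs8, an iron-sulfur subunit of complex I (chr19:3908863-3912774), was higher by 1.2, Ndufb8 by 0.98, Uqcrq by 0.79, Ndufb7 by 0.78 and Ndufc2 by 0.69. The members lower in macrophages were Ndufa4l2 (-3.08), the assembly factors Ndufaf4 (-1.05) and Ndufaf2 (-0.70), and Ndufs4 (-0.61). Ndufa4l2 was low in both types, with 5 UMIs in all macrophages (0.356 CPM) and 5.04 CPM in fibroblasts, so the size of its difference rests on few counts. By complex, 7 of 38 complex I, 3 of 4 complex II, 4 of 8 complex III, 5 of 12 complex IV and 3 of 15 complex V nuclear subunits were higher. In the citric acid cycle list 2 of 16 genes were higher and 6 lower, and of 14 hypoxia-related genes 1 was higher and 8 were lower. Over all genes 29.7% were higher and 33% lower, and the share of citric acid cycle genes called lower is near that share.

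Lymphatic endothelium was compared with blood endothelium after the gate was widened, because the first gate left too few cells. The widened gate, chosen after seeing the data, held 12, 17, 13, 66, 57 and 2 cells, and 5 libraries entered. Of 84 nuclear members tested 1 was higher in lymphatic cells and 4 were lower, against 9.4% of all genes higher and 12.3% lower. Of 13 mitochondrial members 2 were lower. The nuclear sum was 15064, 16394, 14436, 15847 and 12366 in lymphatic cells and 15405, 15695, 15462, 15461 and 14893 in blood endothelium, lower in lymphatic cells in 3 of the 5 libraries.

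Cox4i2 and Ndufa4l2 had 0 UMIs among 1512541 in lymphatic endothelium. In blood endothelium they had 64 and 135 UMIs, or 20.3 and 42.8 CPM. Pooled over the 5 libraries, these blood levels were 10.2 and 21.6 times a floor of 3 lymphatic counts (1.98 CPM). The ratios are no bounds, because libraries weigh differently in the 2 groups. The young male library gave 48 and 100 of the blood UMIs but 73914 of the lymphatic total. The libraries labelled middle-aged female and aged male gave 710429 and 573379 of that total. Blood endothelium there held 4 and 1 UMIs of Cox4i2 and 14 and 2 of Ndufa4l2. Pericyte markers summed to 194 to 926 CPM in these blood endothelial sums and to 0 to 20.8 CPM in the lymphatic ones, and smooth muscle markers to 211 to 368 and 0 to 38 CPM. Their part in the 2 differences was not tested.

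Ndufc2, an accessory subunit of complex I, was at 162, 239, 255, 198 and 88.9 CPM in lymphatic and at 372, 347, 547, 323 and 345 CPM in blood endothelium. Its log2 difference was -0.98 ± 0.27 (SE; edgeR adjusted p = 0.0058). Atp5j, a coupling subunit of ATP synthase, was at 244, 271, 204, 235 and 167 against 518, 472, 348, 376 and 410 CPM, a log2 difference of -0.95 ± 0.18 (SE; edgeR adjusted p = 6.5e-05). Lymphatic values lay below the blood values for both genes in all 5 libraries. Ndufaf2, an assembly factor, was higher by 1.03, and mt-Nd3 (-0.64) and mt-Co2 (-0.63) were lower. Erythrocyte genes summed to 77.7 to 1807 CPM in blood endothelium and to at most 22.7 CPM in lymphatic cells. Without the aged male library 4 members were called, and without the library labelled middle-aged female 9.

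Age comparisons used sums within a type, with each age holding at most 2 libraries. Comparisons within a type share their young libraries. In fibroblasts, edgeR called 0 of 105 members in aged against young mice and 0 in middle-aged against young, where 0% of all genes were called in each. At an unadjusted p under 0.05 there were 2 and 4 members, and DESeq2 called 0 and 1. In macrophages it called 0 of 102 in both, also with 0% of all genes, with 5 and 6 members at an unadjusted p under 0.05 and 0 and 2 by DESeq2. In blood endothelium 0 of 93 were called (0.124% of all genes), with 5 at an unadjusted p under 0.05 and 0 by DESeq2, and in muscle 0 of 91 (0.0287%), with 2 at an unadjusted p under 0.05 and 1 by DESeq2. Muscle here is 1 aged and 1 young library of at least 20 cells, so the spread comes from the middle-aged pair. In blood endothelium, leaving out the aged female library gave 9 calls, 2 higher and 7 lower.

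The mitochondrial members of fibroblasts took 2.81, 1.64, 2.76, 1.99, 1.36 and 1.58% of UMIs, and those of macrophages 4.50, 2.47, 2.53, 2.30, 2.16 and 2.36%. The young male library was highest in both. The median log2 difference of the 13 genes in aged against young mice was -0.75 in fibroblasts and -0.59 in macrophages, and without the young male library it was -0.07 and 0.02. The nuclear medians were -0.10 and 0.01.

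In lymphatic endothelium of the widened gate the aged group was 1 library of 57 cells. The standard errors and p-values therefore hold no spread among aged libraries and assume that the aged library varies as the young and middle-aged ones do. Under that assumption 7 of 77 members were called between aged and young mice by edgeR, with 1 higher and 6 lower. All genes gave 4.46% higher and 3.13% lower. The lower members were Ndufb9, an accessory subunit of complex I (-2.07 ± 0.51 SE; edgeR adjusted p = 0.0025), mt-Co2 (-1.81), mt-Atp6 (-1.78), mt-Nd2 (-1.70), mt-Nd3 (-1.51) and mt-Cytb (-1.45). Ndufb9 was at 284, 229, 153, 104 and 59.3 CPM in the 5 lymphatic sums, and mt-Co2 at 6656, 3613, 2059, 3066 and 1437 CPM. Both young values lay above the other 3 for each gene. In blood endothelium of the same libraries mt-Co2 was at 6713, 5463, 3727, 4288 and 2892 CPM, in the same order of libraries. Without either of the young libraries no member was called.

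The higher member was mt-Nd4l, a small complex I subunit whose gene precedes mt-Nd4 on a shared messenger and overlaps it by 7 bases. In lymphatic endothelium it differed by 1.23 ± 0.39 (SE; edgeR adjusted p = 0.028). In the aged against young comparisons of muscle (3.59), macrophages (1.31), blood endothelium (1.27) and fibroblasts (1.04) it was also positive, with edgeR adjusted p of 0.13, 1, 0.42 and 0.88. The muscle value compares 1 aged with 1 young library, and both its size and its call varied with the setting. With muscle sums of at least 10 cells, which adds the young female and aged female libraries, the log2 difference was 2.01 (edgeR adjusted p = 0.999). It was 2.19 with a cap of 20% and 1.48 with no cap (edgeR adjusted p of 0.996 and 0.995), and 3.68 with no filter (edgeR adjusted p = 1). DESeq2 called it at 3.59 (adjusted p = 0.040). Clusters in place of gates gave 2.57, and leaving out the keratin cells gave 3.60 at 20 cells or more and 2.54 at 10 or more. Without the keratin cells the aged female library held 5 muscle cells, so these keratin-free fits each had 1 aged library. In middle-aged against young mice it was at 2.13 in fibroblasts and 1.48 in macrophages, without passing in edgeR.

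As a share of mitochondrial UMIs, mt-Nd4l was 0.354, 1.29, 3.19, 5.13, 5.79 and 1.57% in muscle. In fibroblasts it was 0.459, 1.14, 2.46, 2.90, 3.45 and 1.19%, and in macrophages 0.299, 0.936, 1.68, 1.89, 2.88 and 1.06%. Blood endothelium had 0.438, 1.12, 2.67, 3.43, 3.43 and 1.41%. In all 4 types the young male library was lowest, and the aged female library stood closer to the young female library than to the aged male. Barcodes with at most 100 UMIs showed 0.700, 1.75, 3.18, 3.30, 4.90 and 1.49%, the same pattern outside cells, and the part of free RNA or library in the differences was not tested. The share of mt-Atp6 in muscle was 21.2, 18.7, 14.0, 16.5, 13.7 and 15.1%, highest in the young male library where mt-Nd4l was lowest.

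**Figure D5:**
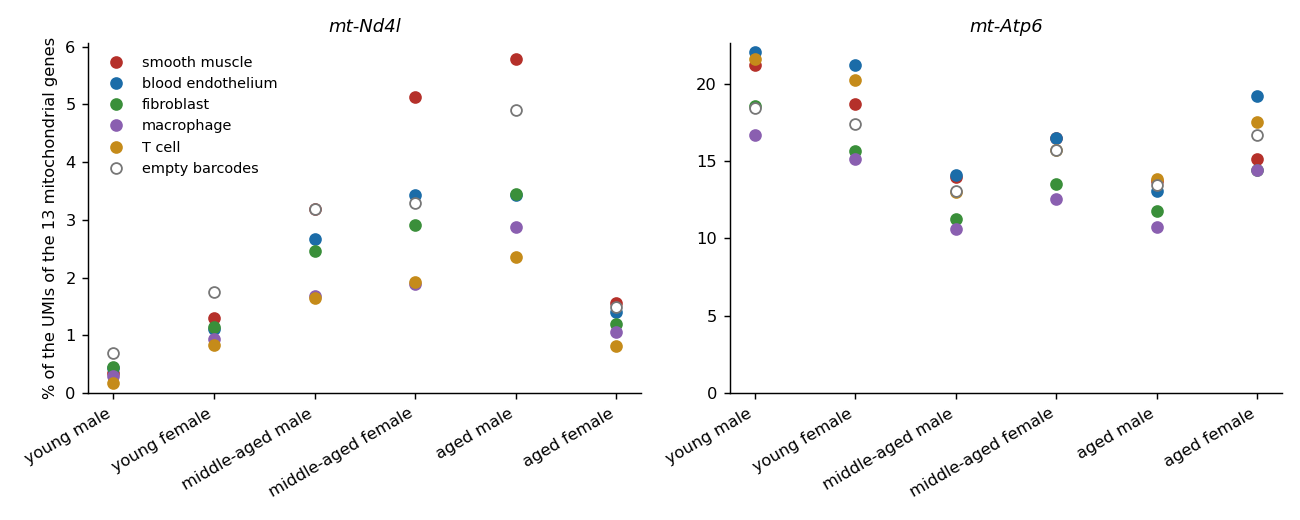
mt-Nd4l (left) and mt-Atp6 (right) as a percentage of mitochondrial UMIs by library, for 5 cell types and for barcodes with at most 100 UMIs (open circles, empty barcodes). For mt-Nd4l the aged female library stands nearer the young female than the aged male library in every series drawn, and the open circles rise and fall with the cells.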

How the data were processed

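Droplet 3′ libraries were made with the 10x Genomics v2 kit per the labels' protocols, although the deposited barcode lists have the length of a later kit's list. Cell Ranger 3.0.2, Seurat and the mm10 genome are named in the submitters' processing notes. The authors deposited raw UMI counts per gene and barcode for each library. From them, 24488 barcodes were taken that had 500 genes or more and no more than 10% of UMIs from mitochondrial genes, less 590 marked by Scrublet. A barcode was gated to a type if at least 3 of the 8 markers of its list were detected and this number was at least 2 above that for every other of the 15 lists. UMIs were summed per library and type, for sums of at least 20 cells, and types with such sums in at least 3 libraries entered the cell type fit.

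Sums were tested with edgeR 4.0.16 in R 4.3.3 (TMM, filterByExpr, quasi-likelihood test, Benjamini-Hochberg over all genes, threshold 0.05), with library as a block between types and age group as the term between ages. The scripts were tested on simulated data. Alternatives included DESeq2 1.42.0, no filter, other caps, gates and Leiden clusters (scanpy 1.11.5, 30 components, 2000 genes, 15 neighbours, resolution 1), and each library left out. The members and the gene lists were chosen with earlier results of these data known. Genes were named by rule: isoform sets, the 3 members of each complex with the highest mean CPM, all mitochondrial members, up to 8 members per direction by fold with at least 10 CPM on the higher side, up to 5 per direction by p for age, and up to 3 by p of each other list; some genes that the rule names are not reported here. Positions are from GENCODE M21 (GRCm38). The gate and cell minimum of lymphatic endothelium differ from the planned ones, which held too few cells.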

Additional observations from a re-analysis of the deposited data

Results flagged for a closer look

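A signal lay outside the cells used for the comparisons, in barcodes that passed the muscle gate but had more than 10% mitochondrial UMIs. They were 25.6% of all muscle-gated barcodes (74 of 289), and 52.0% in the young male library (51 of 98). They held a median of 2383 UMIs against 2313 in the muscle barcodes kept, and their nuclear members summed to 31924 against 26213 UMIs per 1000000 non-mitochondrial UMIs. Of the muscle barcodes, 25 lay between 9 and 10% and 10 between 10 and 11%. Whether these barcodes are intact cells was not tested.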

How the results depend on the processing

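Of 1068 values of single genes under other settings, 1001 kept their direction and side of the threshold, 39 passed it newly, 27 no longer passed and 1 reversed: Ndufa4 in muscle went from 0.33 to -0.017 with clusters in place of gates, not past the threshold in either. Members called in muscle against the other types ran from 47 with no filter to 83 with no cap, 79 with DESeq2 and 49 to 60 with 1 library left out. The mean mitochondrial share of muscle was 3.91% with a cap of 5%, 7.31% with a cap of 20% and 7.92% with no cap, and the mean nuclear sum was 21557 with a cap of 5%, where the sums differ because other barcodes are kept. For aged against young muscle the fits with DESeq2, with clusters and without keratin cells left at least 1 age with 1 library, so their calls are not counted here. Members called by age with no filter were 3 in middle-aged fibroblasts, 1 in aged macrophages and 2 in middle-aged macrophages, and with DESeq2 1 in middle-aged fibroblasts and 2 in middle-aged macrophages. For aged against young lymphatic endothelium 3 were called with DESeq2, 1 with no filter and 1 with mitochondrial genes left out, and 0 to 9 with 1 library left out. Leaving out 1 library gave 0 to 9 in aged against young blood endothelium and 4 to 9 in lymphatic against blood endothelium. The causes of these changes were not tested. With a cap of 5% the muscle comparison could not be fitted, and other caps, stricter gates, clusters and kept doublets were not run for lymphatic endothelium. No paired analysis was possible because the labels give no replicate numbers, and labelled sex was tried as a term instead. Muscle sums of 13 to 87 cells limit the precision of genes with few UMIs.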

Other observations

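Cell types with sums in fewer than 3 libraries entered no comparison. Mast cells, in 2 libraries, had a mean nuclear member sum of 9296 UMIs per 1000000 non-mitochondrial UMIs, close to that of neutrophils (8872), and a mitochondrial share of 4.73%, above that of blood endothelium (3.46%). Schwann-gated cells, in 1 library, had 16759 and 4.65%. Pericyte-gated cells of the young male library had 19085 and 4.18%, below young male muscle at 24966 and 7.43%.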
